A study of Mus musculus with 2 samples.

Results

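*Cym*, the gene of the milk-clotting protease chymosin, was studied in the E15.5 mouse pancreas together with 9 genes of the stomach epithelium: *Pgc*, *Ctse*, *Gkn1*, *Gkn2*, *Tff1*, *Tff2*, *Atp4a*, *Atp4b* and *Cblif*. These 10 genes, of 19938 with a value, were chosen by the high *Cym* value of the *Mafk*-Tg array and by what is known of the stomach, to ask whether other stomach genes were high with it. The difference of *Cym* is therefore a description and supports nothing further. RNA of whole pancreas was hybridised to Affymetrix MoGene arrays, with 1 array for *Mafk*-Tg and 1 for WT, and 3 pancreata stated for each genotype. *Mafk*-Tg embryos carry FLAG-tagged murine MAFK behind the rat insulin I promoter, which restricts the transgene to β-cells, a small part of the tissue measured. The line was started in BDF1 eggs, and both genotypes were on the ICR background.

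Chymosin, pepsinogen C (*Pgc*) and cathepsin E (*Ctse*) are aspartic proteases, enzymes that cut proteins with a pair of aspartates in the active site and are made as inactive precursors. In the stomach of suckling mammals chymosin curdles milk, while pepsinogens take over protein digestion later. The glandular stomach holds acid-secreting parietal cells with the proton pump ATP4A/ATP4B, enzyme-secreting chief cells, which in mice also make the intrinsic factor encoded by *Cblif*, and mucous cells that secrete gastrokines and trefoil peptides. The stomach and the pancreas both arise from the foregut, and acid and pepsinogen secretion mature in the mouse late in gestation and after birth.

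Each of the 10 genes was read by 1 probe set that names no other gene, and 6 of them have a promoter entry in RefSeq (GRCm38.p6). The 250 bases before the start of transcription are shown for *Cym*, on which the results turn, for *Pgc*, a protease gene whose values hardly differed, and for *Gkn1* and *Atp4a*, which passed 1.2-fold in opposite directions. They lie at chr3:107221733-107221982 on the minus strand for *Cym*, chr17:47726592-47726841 on the plus strand for *Pgc*, chr6:87350916-87351165 on the minus strand for *Gkn1* and chr7:30711959-30712208 on the plus strand for *Atp4a*. Capitals mark matches on either strand to TATAAA, the TATA box, GATAA, bound by GATA factors, TGCTGA, the half-site of MAF proteins, or TGACTCA, the AP-1 site.
Cym: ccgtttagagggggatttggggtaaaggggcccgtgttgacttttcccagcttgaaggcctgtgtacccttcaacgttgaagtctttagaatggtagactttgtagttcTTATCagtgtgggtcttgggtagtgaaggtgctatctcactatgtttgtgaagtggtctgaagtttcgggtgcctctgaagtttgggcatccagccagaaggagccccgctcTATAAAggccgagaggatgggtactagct
Pgc: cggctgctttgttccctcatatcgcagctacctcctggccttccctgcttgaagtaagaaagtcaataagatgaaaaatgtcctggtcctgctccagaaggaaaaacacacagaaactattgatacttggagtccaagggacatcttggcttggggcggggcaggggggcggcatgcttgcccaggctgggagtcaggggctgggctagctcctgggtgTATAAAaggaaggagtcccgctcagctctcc
Gkn1: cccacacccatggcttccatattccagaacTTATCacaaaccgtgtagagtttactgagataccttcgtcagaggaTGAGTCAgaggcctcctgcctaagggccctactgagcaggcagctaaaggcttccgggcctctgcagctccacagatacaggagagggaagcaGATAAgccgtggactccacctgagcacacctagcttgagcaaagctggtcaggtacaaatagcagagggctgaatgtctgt
Atp4a: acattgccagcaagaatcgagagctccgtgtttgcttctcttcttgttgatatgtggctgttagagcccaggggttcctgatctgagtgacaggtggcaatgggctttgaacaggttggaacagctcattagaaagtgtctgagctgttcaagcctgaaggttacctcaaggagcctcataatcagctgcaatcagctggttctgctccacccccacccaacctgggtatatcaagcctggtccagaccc

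The *Cym* sequence held TATAAA at 29 bases and TTATC, which is GATAA on the other strand, at 141 bases before the start. Distances are counted from the first base of the match. It held neither TGCTGA nor TGACTCA. The TATA box stood at 31 bases in *Pgc* and at 29 in *Gkn2*, and in none of the sequences of *Gkn1*, *Atp4a* and *Cblif*. Among all 32851 promoter windows of this length, 12.4% held TATAAA, 22.6% GATAA, 16.1% TGCTGA and 4.46% TGACTCA, each on either strand. Among the 6 genes, GATAA was matched in *Cym*, *Gkn1* and *Gkn2*, TGCTGA only in *Cblif* and TGACTCA only in *Gkn1*. The MAF half-site and the AP-1 site can overlap in their last and first bases, but no window of the 6 genes held both. A match of letters is not a measured binding site.

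*Cym* had a log2 value of 10.51 in the *Mafk*-Tg array and 7.17 in the WT array, a difference of 3.34. On the linear scale this was 1455 in *Mafk*-Tg and 144 in WT, or 10.1-fold higher in *Mafk*-Tg. A single array per genotype gives no replicate error, so this and every other difference was left untested, with a precision set by that number of arrays. Among all genes with a value, only *Xist* had a larger increase. At least 2-fold higher were 12 genes, or 0.0602% of 19938, and at least 2-fold lower were 27, or 0.135%. The other 9 stomach genes were all within 2-fold.

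**Figure D1:**
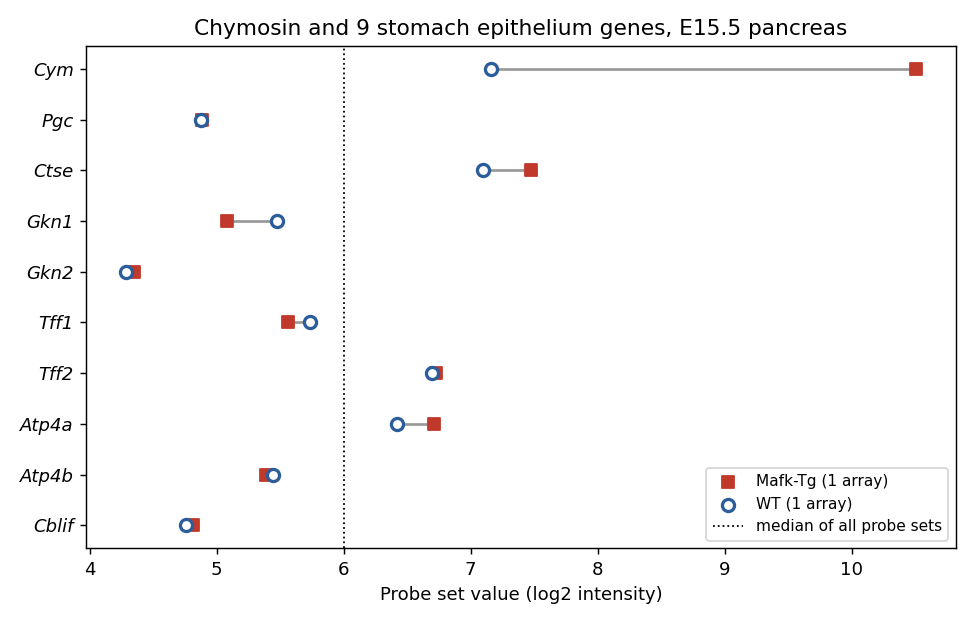
Log2 probe set values of *Cym* and 9 stomach epithelium genes in *Mafk*-Tg (squares) and WT (open circles), with 1 array per genotype and no error bars; the dotted line marks the median of all probe sets. *Cym* lies at 10.51 in *Mafk*-Tg and 7.17 in WT, while the pairs of *Pgc*, *Gkn2*, *Tff2*, *Atp4b* and *Cblif* nearly coincide.

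The other stomach genes did not share the size of this difference. Of the 9, 2 had values in *Mafk*-Tg at least 1.2-fold higher, 1 was at least 1.2-fold lower and 6 lay within 1.2-fold, with a median log2 difference of 0.03. The 1.2-fold cutoff, 0.26 on the log2 scale, is the one that the study's results section gives for its arrays. Over all genes 7.96% were at least 1.2-fold higher and 10.5% at least 1.2-fold lower, against which 2 of 9 and 1 of 9 are to be read. These shares depended on level. Among 11412 genes whose mean reached the median probe set level, 5.58% were higher and 5.87% lower, and among 8526 genes below it 11.1% were higher and 16.6% lower. *Cym*, *Ctse*, *Tff2* and *Atp4a* lay on the brighter side, and *Pgc*, *Gkn1*, *Gkn2*, *Tff1*, *Atp4b* and *Cblif* on the dimmer side. Beside *Cym*, the genes that were higher came from the brighter side and the gene that was lower from the dimmer side.

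Of the 2 protease genes beside *Cym* among the 10, *Ctse* passed the cutoff and *Pgc* did not. *Ctse*, which encodes an endosomal protease of gastric surface cells and also of immune cells, had 7.47 in *Mafk*-Tg and 7.10 in WT, a log2 difference of 0.37 or 1.30-fold. An increase at least as large was found in 3.36% of all genes. *Pgc*, the gene of the chief cell zymogen progastricsin, had 4.88 in *Mafk*-Tg and 4.88 in WT, with a difference of 0.01. *Cym* thus differed by 3.34 on the log2 scale and the related *Pgc* by 0.01 in the same pair of arrays. In both arrays *Pgc* lay within the background signal estimated below, so its small difference is no measure of an unchanged level.

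Of the pump subunits of parietal cells, 1 passed the cutoff. *Atp4a*, the catalytic subunit, had 6.71 in *Mafk*-Tg and 6.42 in WT, a log2 difference of 0.30, just past 1.2-fold at 1.23. *Atp4b*, the partner subunit needed to bring the pump to the membrane, had 5.39 in *Mafk*-Tg and 5.44 in WT, a difference of -0.05. *Cblif*, the vitamin B12 carrier, had 4.81 in *Mafk*-Tg and 4.76 in WT, a difference of 0.05 and under the cutoff.

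No gene of a mucous cell product among the 10 passed the cutoff upwards. *Gkn1*, the gene of a protective peptide of surface mucous cells, had 5.08 in *Mafk*-Tg and 5.48 in WT, a log2 difference of -0.40, and was 1.32-fold lower in *Mafk*-Tg. It lay on the dim side of the arrays, where 16.6% of genes were at least 1.2-fold lower. Its neighbour *Gkn2*, which encodes the related gastrokine that binds TFF1, had 4.35 in *Mafk*-Tg and 4.29 in WT, a difference of 0.06. *Tff1*, the trefoil peptide gene of surface mucous cells, had 5.56 in *Mafk*-Tg and 5.73 in WT, a difference of -0.17. *Tff2*, the trefoil peptide gene of mucous neck cells, had 6.73 in *Mafk*-Tg and 6.70 in WT, a difference of 0.03. Neither trefoil gene passed 1.2-fold. *Gkn1* and *Gkn2* lie next to each other on chromosome 6, and *Tff1* and *Tff2* close together on chromosome 17, where *Pgc* also lies. *Cym* is on chromosome 3, *Ctse* on 1, *Atp4a* on 7, *Atp4b* on 8 and *Cblif* on 19.

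**Figure D2:**
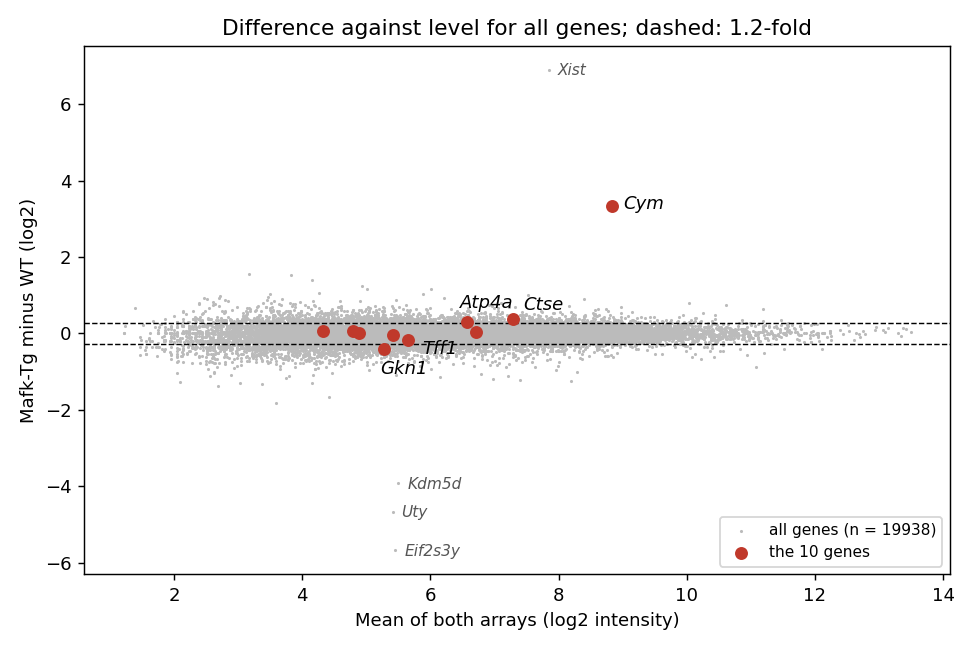
Log2 difference, *Mafk*-Tg minus WT, against the mean of both arrays for 19938 genes (grey) and the 10 genes (red), from 1 array per genotype; dashed lines mark 1.2-fold. *Cym* at 3.34 stands apart from the other 9, which lie between -0.40 and 0.37; *Xist* and the Y-linked genes are named in grey.

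To show how these arrays read genes that the pancreas is not known to use, 1224 genes of odorant, vomeronasal and bitter taste receptors were taken as an estimate of background signal. Their 95th percentile was 5.13 in *Mafk*-Tg and 5.18 in WT, and their 99th percentile was 5.81 in *Mafk*-Tg and 6.05 in WT. *Pgc*, *Gkn2* and *Cblif* lay at or below the 95th percentile in both arrays, and *Cym*, *Ctse*, *Tff2* and *Atp4a* above the 99th in both. Probes differ in how brightly they read, so this is a guide to background and not a comparison of levels between genes. The highest receptor gene had 7.56 in *Mafk*-Tg and 7.79 in WT, so that *Cym* at 10.51 was above the whole set in *Mafk*-Tg and at 7.17 above the 99th percentile, but not the highest gene, in WT. The receptor genes had a median log2 difference of -0.11, with 10.2% at least 1.2-fold higher and 27.7% lower. *Gkn1* lay below their 95th percentile in *Mafk*-Tg and above it in WT.

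A wider set of 44 stomach epithelium genes, all with a value, was set beside *Cym*. In *Mafk*-Tg, 11 of these were at least 1.2-fold higher, 4 were lower and 29 lay within the cutoff, with a median log2 difference of 0.15 against -0.01 over all genes, of which 7.96% were higher and 10.5% lower. Of the 21 at or above the median level 6 were higher and 1 was lower, beside 5.58% and 5.87% of all genes there, and of the 23 below it 5 were higher and 3 lower, beside 11.1% and 16.6%. The share that was higher thus exceeded that of all genes on both sides of the median level, in lists that were chosen with results of these arrays known. Of the brighter genes that were higher, *Bhlha15*, *Muc1* and *Gata4* are also genes of the pancreas. Of the dimmer ones, *Anxa10*, *Lipf* and *Vsig1* lay below the 95th percentile of the receptor genes in both arrays, and *Pga5* and *Kcnj15* above it. The largest increase, in *Anxa10*, was 1.06.

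Among 11 parietal cell genes 3 were higher and 0 lower, beside 7.96% and 10.5% of all genes, with a median of 0.21. *Aqp4*, a basolateral water channel, had 7.67 in *Mafk*-Tg and 7.20 in WT, a difference of 0.48. *Clic6*, an intracellular chloride channel gene, had a difference of 0.33 and the potassium channel gene *Kcnj15* one of 0.28. *Kcnq1* and *Kcne2*, which together form the potassium channel of the acid-secreting membrane, had differences of 0.22 and 0.15, and *Hrh2*, the histamine receptor gene, one of 0.00, all under 1.2-fold.

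Among 4 chief cell genes 3 were higher and 0 lower, of which 2 lay on the dim side, where 11.1% of all genes were higher, and 1 on the bright side, where 5.58% were. *Pga5*, the gene of pepsinogen A and so of a further secreted aspartic protease of the stomach, had 5.71 in *Mafk*-Tg and 5.29 in WT, a difference of 0.42. *Lipf*, the gastric lipase gene, had 3.78 in *Mafk*-Tg and 3.33 in WT, a difference of 0.45. Both were below the median level. *Bhlha15*, the gene of the secretory cell factor MIST1, had 9.50 in *Mafk*-Tg and 9.07 in WT, a difference of 0.42, and is also expressed by acinar cells. *Chia1*, the acidic chitinase gene, had a difference of 0.01.

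The mucous cell list of 13 genes had 4 higher and 2 lower, with a median of 0.11. Of these, 10 lay on the dim side, with 2 higher and 2 lower, where 11.1% of all genes were higher and 16.6% lower. The 3 on the bright side had 2 higher and 0 lower, beside 5.58% and 5.87% of all genes there. *Anxa10*, an annexin gene of gastric surface cells, had 4.79 in *Mafk*-Tg and 3.73 in WT, and *Vsig1*, a gastric junction protein gene, had 3.79 in *Mafk*-Tg and 3.23 in WT, a difference of 0.56. Both were dim in both arrays. *Cldn18*, a claudin gene of stomach and lung, was brighter, with 7.40 in *Mafk*-Tg and 6.85 in WT, a difference of 0.55. *Muc1*, a membrane mucin gene that pancreatic epithelium also expresses, had a difference of 0.30. The secreted gastric mucin genes *Muc5ac* and *Muc6* had differences of 0.00 and 0.11, and the lower genes were *Capn9*, a digestive tract calpain gene, at -0.38 and the third gastrokine gene *Gkn3* at -0.26, which fell inside the cutoff under quantile normalization at -0.25 and under loess at -0.24.

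Of 5 gastric endocrine genes 0 were higher and 2 were lower, beside 7.96% and 10.5% of all genes. *Hdc*, the gene of the histamine-forming enzyme of enterochromaffin-like cells and of mast cells and basophils, had 7.19 in *Mafk*-Tg and 8.07 in WT, a difference of -0.88, and the vesicular amine transporter gene *Slc18a2* had one of -0.40. *Hdc* lay on the bright side, where 5.87% of all genes were lower, and *Slc18a2* on the dim side, where 16.6% were. The hormone genes *Gast* and *Ghrl* had differences of 0.04 and 0.21. Leukocyte genes were lower in the same array: 9 of 10 were lower in *Mafk*-Tg and 0 higher, with differences between -0.87 and -0.24. All 10 lay on the bright side, where 5.87% of all genes were lower. The part of leukocyte genes in the difference of *Hdc* was not tested.

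Of 11 transcription factor genes of the gastric epithelium, 1 was higher and 0 lower, beside 7.96% and 10.5% of all genes. Their median log2 difference was 0.12 against -0.01 over all genes, and 9 of the 11 were above 0. *Gata4*, a factor of both glandular stomach and early pancreas, had 8.75 in *Mafk*-Tg and 8.47 in WT, a difference of 0.27. *Sox2*, a factor of the foregut that is kept in the stomach and lost from the pancreas, had 4.30 in *Mafk*-Tg and 4.06 in WT, a difference of 0.24 and under the cutoff, which it passed at 0.27 under loess. *Nkx6-3*, an antral factor, had a difference of 0.12.

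**Figure D3:**
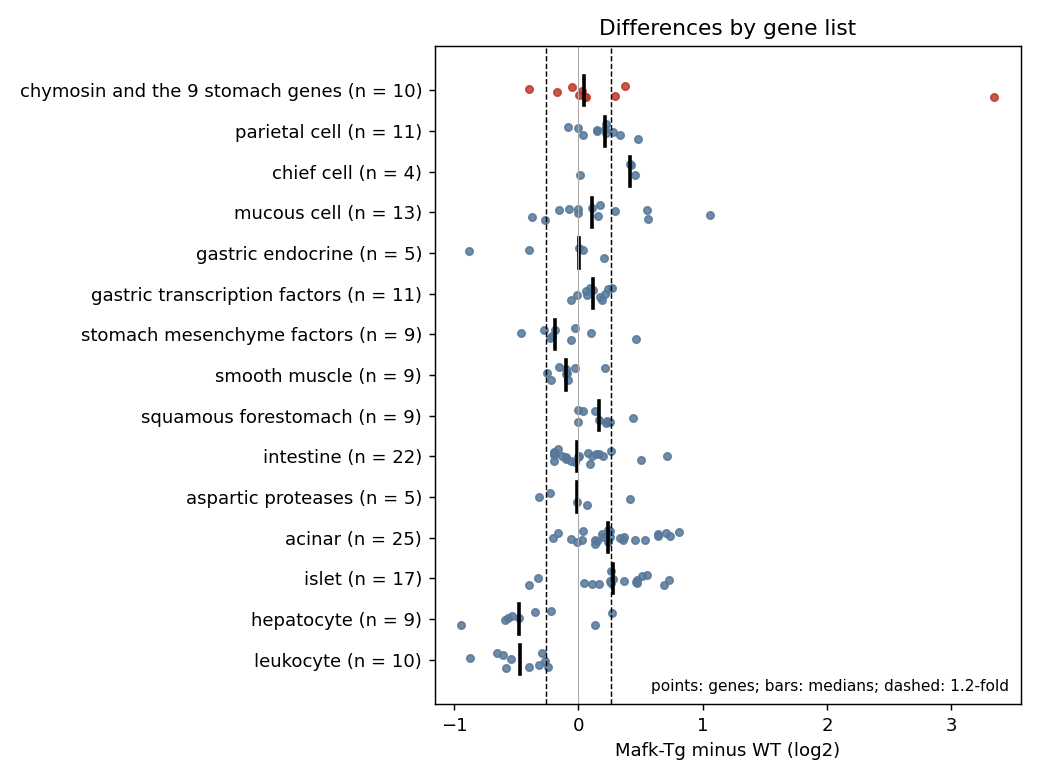
Difference on the log2 scale between *Mafk*-Tg and WT for genes in 15 lists (points, 1 per gene; black bars, list medians; 1 array per genotype; dashed lines, 1.2-fold). *Cym* is the red point at 3.34; medians run from -0.47 in hepatocyte and leukocyte genes to 0.42 in the 4 chief cell genes.

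Genes of the stomach wall and of neighbouring gut tissue were also read. Of 9 mesenchymal factors that pattern the stomach wall or the adjoining pancreas and spleen mesenchyme, 1 was higher and 2 were lower. Over all genes 7.96% were higher and 10.5% lower. *Barx1*, which specifies the stomach through its mesenchyme, had 8.42 in *Mafk*-Tg and 8.45 in WT, a difference of -0.03. The higher gene was *Isl1*, also an islet factor, at 0.47, and the lower ones were *Nkx2-5* at -0.46 and *Nr2f2* at -0.28. Of 9 smooth muscle genes 0 passed the cutoff in either direction, with differences between -0.25 and 0.21.

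Of 9 genes of squamous epithelium, which lines the mouse forestomach, 1 was higher, *Krt15* at 0.44, and 0 lower. On the dim side, where 11.1% of all genes were higher and 16.6% lower, lay 8 of the 9, *Krt15* among them. Of 22 intestinal genes 2 were higher and 0 lower, beside 7.96% and 10.5% of all genes, with a median of -0.01. The 2 were *Rbp2*, the enterocyte retinol carrier gene, with 7.32 in *Mafk*-Tg and 6.61 in WT, and *Cdx1*, an intestinal homeobox gene, with 6.68 in *Mafk*-Tg and 6.17 in WT. Both were among the 3 intestinal genes at or above the median level, where 5.58% of all genes were higher and 5.87% lower. Of the 19 below it 0 were higher and 0 lower, beside 11.1% and 16.6% of all genes there. *Cdx2*, the master factor of the intestine, had a level of 5.01 in both arrays, below the 95th percentile of the receptor genes in each.

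Outside the 10 genes, 7 aspartic protease genes were listed, of which 5 had a value, *Pga5* of the chief cell list among them, and *Ren1* and *Ren2* had none. Of the 5, 1 was higher and 1 lower, beside 7.96% and 10.5% of all genes. *Pga5* was higher at 0.42, *Napsa*, the gene of a lung and kidney protease, was lower at -0.32, and *Ctsd*, *Bace1* and *Bace2* lay within 1.2-fold at 0.07, -0.01 and -0.22. Acinar genes, which check the labelled tissue, had 23 of 25 measured members at or above the median level, with 10 higher and 0 lower, all 10 on the bright side, where 5.58% of all genes were higher, and a median of 0.24. Their largest increase was 0.81 in *Try5*, a trypsinogen gene. All 17 islet genes measured were at or above the median level, with 11 higher and 2 lower, beside 5.58% and 5.87% of all genes at such levels. In RNA of a whole organ, more cells of a type and more RNA per cell cannot be told apart.

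The genes beside *Cym* on chromosome 3 did not share its difference. Of the 5 annotated genes on each side, 8 had a value. Distances are between the lowest coordinates of the genes, whatever their strand, so they are not distances between starts of transcription. *Kcna10*, a potassium channel gene 28.2 kb from *Cym*, had 5.32 in *Mafk*-Tg and 5.31 in WT, a log2 difference of 0.01. *Prok1*, the prokineticin gene at 20.6 kb on the other side, had 5.08 in *Mafk*-Tg and 4.94 in WT, a difference of 0.14. *Kcna2*, *Kcna3*, *AI504432*, *Lamtor5* and *Rbm15* had differences between -0.20 and 0.11. Only *Slc16a4*, a transporter gene of the monocarboxylate family, passed the cutoff, in the opposite direction at -0.72. It had 4.18 in *Mafk*-Tg and 4.90 in WT, on the dim side, where 16.6% of all genes were at least 1.2-fold lower. *Slc16a4* and *Prok1* lay below the 95th percentile of the receptor genes in both arrays, so their values are near background signal.

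Within 5 Mb of *Cym*, 110 other genes had a value, of which 10, or 9.09%, were at least 1.2-fold higher and 17, or 15.45%, lower. Over the whole chromosome these shares were 9.34% and 9.66% of 942 genes. The largest other increase within 5 Mb, and on the whole chromosome, was that of *Nr1h5*, a nuclear receptor gene 4.27 Mb away, which had 6.59 in *Mafk*-Tg and 5.43 in WT, a difference of 1.16. The largest decrease within 5 Mb was that of *Chil3*, a chitinase-like gene of myeloid cells, with 4.56 in *Mafk*-Tg and 5.52 in WT, a difference of -0.96, while *Chia1*, the gastric chitinase gene nearby, had a difference of 0.01.

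**Figure D4:**
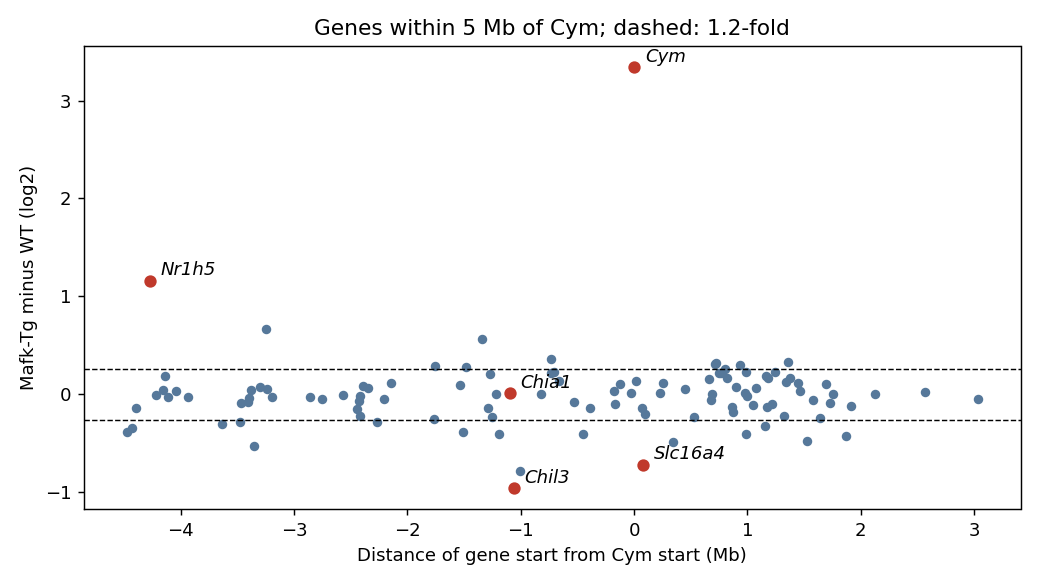
Log2 difference, *Mafk*-Tg minus WT, of *Cym* and 110 other genes by distance from *Cym* in Mb, from 1 array per genotype. Starts are the lowest coordinates of the genes, whatever their strand, and dashed lines mark 1.2-fold. *Cym* at 3.34 has no neighbour of like size, and *Nr1h5* at 1.16 is the next highest.

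No gene had a difference close to that of *Cym*. The 5 nearest in value were *Zfp979* at 1.55, *Zfp600* at 1.54, *Sult1d1* at 1.40, *Bpifb1* at 1.23 and *Olfr566* at 1.16, at least 1.79 away on the log2 scale, and all were below the median level. *Zfp979* and *Zfp600* encode zinc finger proteins and both lie on chromosome 4, *Sult1d1* encodes a sulfotransferase and *Bpifb1* a secreted protein of mucosal surfaces. With 2 arrays this likeness is in the size of 1 difference only.

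Facts of the arrays bear on all of these values. *Mafk* itself had 7.00 in *Mafk*-Tg and 6.75 in WT, a difference of 0.25 and under 1.2-fold. *Xist*, the RNA of the inactive X chromosome, differed by 6.90, and *Eif2s3y*, *Uty* and *Kdm5d* of the Y chromosome by -5.68, -4.67 and -3.93. Sex and genotype therefore cannot be told apart in this pair of arrays, for genes on any chromosome. None of the 10 genes lies on a sex chromosome, which does not remove this limit. Hepatocyte genes were mostly lower in *Mafk*-Tg, 6 of 9 with 1 higher, and leukocyte genes were lower in 9 of 10, beside 5.87% of all genes on the bright side, where all these lower genes lay, while 9 reference genes had a median difference of 0.02 and 0 past the cutoff. The part of these differences in the value of *Cym* was not tested.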

How the data were processed

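RNA of whole E15.5 pancreata was hybridised to MoGene-1_0-st-v1 arrays, and 1 array of *Mafk*-Tg and 1 of WT were analysed. The deposited log2 values had been normalized and summarized per probe set by the authors with Affymetrix Expression Console, the version of which, like the algorithm, is not given in the sources used here. In the study's text the array material is described as technical replicates, with 3 per genotype, and whether an array holds a pool is not stated, and the labels and the study's methods name different RNA extractions. The medians were 6.01 in *Mafk*-Tg and 6.01 in WT, and the values were used as deposited.

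The platform's gene table gave 1 symbol to 21789 of 35556 probe sets and several to 1621, and left 12146 unnamed here. A gene's value is the mean of its probe sets that carry 1 symbol. Genes were placed with the RefSeq gene table of GRCm38.p6, whose build is used for all coordinates. No test was run. Genes named are the 10 stomach genes, up to 3 highest and 3 lowest past 1.2-fold of each list, the 5 genes on each side of *Cym* and the 5 with the nearest differences. Names beyond these were added after their values had been seen, to give a list's range or its defining genes. The 10 genes and the 19 lists were chosen with earlier results of these data known. The receptor genes, the promoter motifs and the 5 Mb window were chosen after the values had been seen. Alternatives were equal medians, quantile normalization, a loess with a span of 0.3, leaving out dim genes, cutoffs of 1.5-fold and 2-fold, and the brightest probe set per gene. The steps were checked on simulated data. The work was done in Python 3.11.15 with statsmodels 0.14.6, pandas 2.3.3, numpy 2.4.6 and matplotlib 3.10.9.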

Additional observations from a re-analysis of the deposited data

How the results depend on the processing

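The difference of *Cym* was between 3.33 and 3.34 under equal medians, quantile normalization and loess, and those of the other 9 genes moved by at most 0.03 on the log2 scale. Under these scalings the counts of 3 of the 10 genes at least 1.2-fold higher, *Cym* included, and 1 lower did not move. Taking the brightest probe set per gene could not move them, since each of the 10 genes has 1 probe set. At a cutoff of 1.5-fold 1 gene was higher and 0 were lower, and at 2-fold 1 was higher and 0 were lower, the 1 being *Cym*. With genes below the median level left out, 0 were lower, since *Gkn1* was dropped, and the median log2 difference of the 3 genes left beside *Cym* was 0.30, because fewer genes were counted. Of 264 alternative values for single genes and wider lists, 219 stayed the same, 45 moved, mostly counts at other cutoffs, and 0 turned round. Some of these could not change. A count of 0 stays at 0 under a stricter cutoff, and a gene with 1 probe set has no brighter one. Turning round was looked for in differences only, not in counts. Among the list genes near 1.2-fold, *Gkn3*, *Lcp1*, *Ttr*, *Pax4* and *Pax6* fell inside the cutoff under at least 1 scaling, and *Sox2*, *Sprr3* and *Vil1* passed it under at least 1. Each of the 10 genes rests on 1 probe set and 1 array per genotype. No paired analysis was possible because each genotype has 1 array.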

Other observations

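*Dmbt1*, which encodes a secreted mucosal protein, was among the 12 genes at least 2-fold higher in *Mafk*-Tg, with 6.40 in *Mafk*-Tg and 5.37 in WT, a log2 difference of 1.02. It was picked out after its value had been seen and was below the median level of the arrays.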
